A study of Mus musculus with 7 samples.

Results

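The mitochondrial matrix enzymes that carry out the spiral of fatty acid beta-oxidation were examined in the left ventricle of old mice. The members are the 10 genes Acadvl, Acadl, Acadm, Acads, Hadha, Hadhb, Hadh, Echs1, Acaa2 and Decr1. They were chosen as a list of enzymes, with earlier results of these data known. Each was taken with every probe set that the platform annotation assigns to it alone. They came to 10 of 12393 named genes and to 17 of 22626 probe sets. The study compared males aged 21 months, 1 Affymetrix MOE430A array per mouse. Mice M4, M10 and M140 were labelled eNOS knockout and carried the (-/-) genotype. Mice M23, M125, M128 and M158 were labelled wild type and carried the (+/+) genotype. eNOS, the endothelial nitric oxide synthase that Nos3 encodes, makes nitric oxide in the lining of blood vessels. A keyword names exercise, but the exercise state of each mouse, like the strain and the knockout allele, was not given in the sources used here.

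In the spiral, a fatty acid bound to coenzyme A is shortened by a pair of carbons per turn, and each turn has the same 4 steps. An acyl-CoA dehydrogenase introduces a double bond, an enoyl-CoA hydratase adds water, a hydroxyacyl-CoA dehydrogenase oxidises the product, and a thiolase releases acetyl-CoA. Enzymes at each step differ in the chain lengths they accept. Long chains are handled by Acadvl, Acadl and the trifunctional protein of Hadha and Hadhb, and shorter ones by separate enzymes. The adult heart draws most of its energy from this pathway, and its enzymes are known targets of the nuclear receptors PPARα and ERRα with their coactivator PGC-1α.

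The stretch around the start site is shown for 4 members, because the genes with the largest and the smallest differences below could be set beside each other. RefSeq's GRCm38.p6 table of 250 bases before to 50 after each start held 8 of the 10 genes. Acaa2 and Decr1 had no entry. Capitals mark matches on either strand to AGGTCA, the core element of nuclear receptors, and to GGGCGG, the GC box. Acads (chr5:115119297-115119596) and Hadh (chr3:131272052-131272351) had the largest differences, Acadm (chr3:153944594-153944893) had nearly none, and Hadha (chr5:30154931-30155230) shares its window with Hadhb. All 4 are read from the minus strand and are written 5′ to 3′.
Acads: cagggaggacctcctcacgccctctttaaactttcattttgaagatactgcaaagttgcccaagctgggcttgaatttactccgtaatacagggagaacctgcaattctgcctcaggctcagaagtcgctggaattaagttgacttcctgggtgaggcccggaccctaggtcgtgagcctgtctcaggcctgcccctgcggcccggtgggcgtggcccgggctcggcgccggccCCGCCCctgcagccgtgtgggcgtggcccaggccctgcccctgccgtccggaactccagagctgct
Hadh: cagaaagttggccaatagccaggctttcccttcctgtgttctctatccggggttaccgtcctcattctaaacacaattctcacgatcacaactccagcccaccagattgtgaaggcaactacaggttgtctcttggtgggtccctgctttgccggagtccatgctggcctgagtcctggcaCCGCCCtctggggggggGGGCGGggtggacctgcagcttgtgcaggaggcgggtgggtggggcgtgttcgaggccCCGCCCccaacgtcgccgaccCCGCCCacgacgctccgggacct
Acadm: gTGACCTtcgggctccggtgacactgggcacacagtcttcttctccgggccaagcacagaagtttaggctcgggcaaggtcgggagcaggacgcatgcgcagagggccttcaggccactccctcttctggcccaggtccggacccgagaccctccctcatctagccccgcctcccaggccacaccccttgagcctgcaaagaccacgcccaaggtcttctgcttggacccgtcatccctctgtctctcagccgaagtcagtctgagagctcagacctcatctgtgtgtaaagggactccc
Hadha: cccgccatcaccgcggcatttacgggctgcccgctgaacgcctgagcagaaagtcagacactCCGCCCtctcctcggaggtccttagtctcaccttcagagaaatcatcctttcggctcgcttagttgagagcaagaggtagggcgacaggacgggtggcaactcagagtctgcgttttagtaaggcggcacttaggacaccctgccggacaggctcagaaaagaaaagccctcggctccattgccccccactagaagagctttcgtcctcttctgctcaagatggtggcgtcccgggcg

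Acadm held 1 AGGTCA, which was part of the longer AAGGTCA, and no GC box. Acadvl and Echs1 held 1 AGGTCA each, so that 3 of 8 members had the element, against 16.3% of all 32851 windows in the table (4.72% for AAGGTCA, which contains AGGTCA). Hadh held 4 GC boxes, Acads and Hadha 1 each, and Acadl, Hadhb and Echs1 4, 4 and 3. In all, 6 of 8 members had a GC box, against 35.7% of all windows. Hadha and Hadhb are read away from each other from starts with 272 bases between them, and their windows overlap by 228 bases. The GC box of Hadha lies in that overlap, so the same site is counted for both genes. By the gene order of the same RefSeq assembly, Hadha, Hadhb and Acads lie on chromosome 5, as Nos3 does, with 56, 57 and 662 protein-coding genes between each of them and Nos3.

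Deposited intensities had array medians of 671 to 699. Each array stopped at an upper limit of 44145 to 45552, reached by 51 to 104 probe sets, and the members are among the brightest genes of the heart, so the limit bears on them directly. The ventricular muscle marker Myl2 was at this limit on all 7 arrays. Myl7, the atrial light chain, was highest on knockout M10 (17557) and wild-type M125 (16097), lower on M128 (2926) and M4 (1207), and 356 to 407 on the others. Arrays were hybridized on 4 days. Knockout M140 and wild-type M128 shared day 1, whereas M125 (day 2), M4 with M10 (day 3) and M23 with M158 (day 4) had no array of the other genotype beside them. The ratio of 5′ to 3′ Gapdh signal was 0.0978 on M23 and 0.340 on M158, against 0.521 to 0.777 on the other 5, with the 3′ set at or near the upper limit throughout. The Nos3 probe set read 1231 ± 157.9 (SD, n = 3) on the knockout arrays and 971 ± 170 (SD, n = 4) on the wild-type arrays, so that it did not check the labels.

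Transcripts of 9 of the 10 enzymes read lower on average on the knockout arrays, by up to 0.82 on the log2 scale, and Acadl read slightly higher. With each gene read by its brightest probe set below the upper limit, Hadh and Acads, of the shorter chains, and the thiolase Acaa2 differed most in size, and the medium- and long-chain dehydrogenases Acadm and Acadl least. No member passed an adjusted p of 0.05 by limma, and neither did any of the 13836 tested probe sets (0% called). Testing required a value above the array's 40th percentile on 3 or more arrays, which 15 of the 17 had. Of these 15, 7 were lower and 0 higher at an unadjusted p under 0.05, against 5.25% lower and 6.57% higher among all tested probe sets. The 7 include repeat sets of Acaa2 and of Decr1. By gene, read by the brightest probe set, 4 of 10 were lower and 0 higher, against 5.4% and 6.77% of the 8869 tested genes. All 3 knockout arrays lay below all 4 wild-type arrays for 5 of the 15 and above them for 0, against 4.34% and 4.97% of all. Differences were below 0 for 14 of 15, against 50.5% of all tested probe sets. The median log2 difference was -0.39 over the 15, and -0.0023 over all. These shares are descriptions, since the genes were listed with earlier results of these data known. Bright probe sets were lower somewhat more often: of 4271 with a mean intensity of 2000 or more that were never at the limit, 7.61% were lower at an unadjusted p under 0.05 and 6.32% lay wholly below. Of the 13 member probe sets in that class, 7 and 5 did. In whole left ventricle, fewer heart muscle cells and less RNA per cell cannot be told apart.

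**Figure D1:**
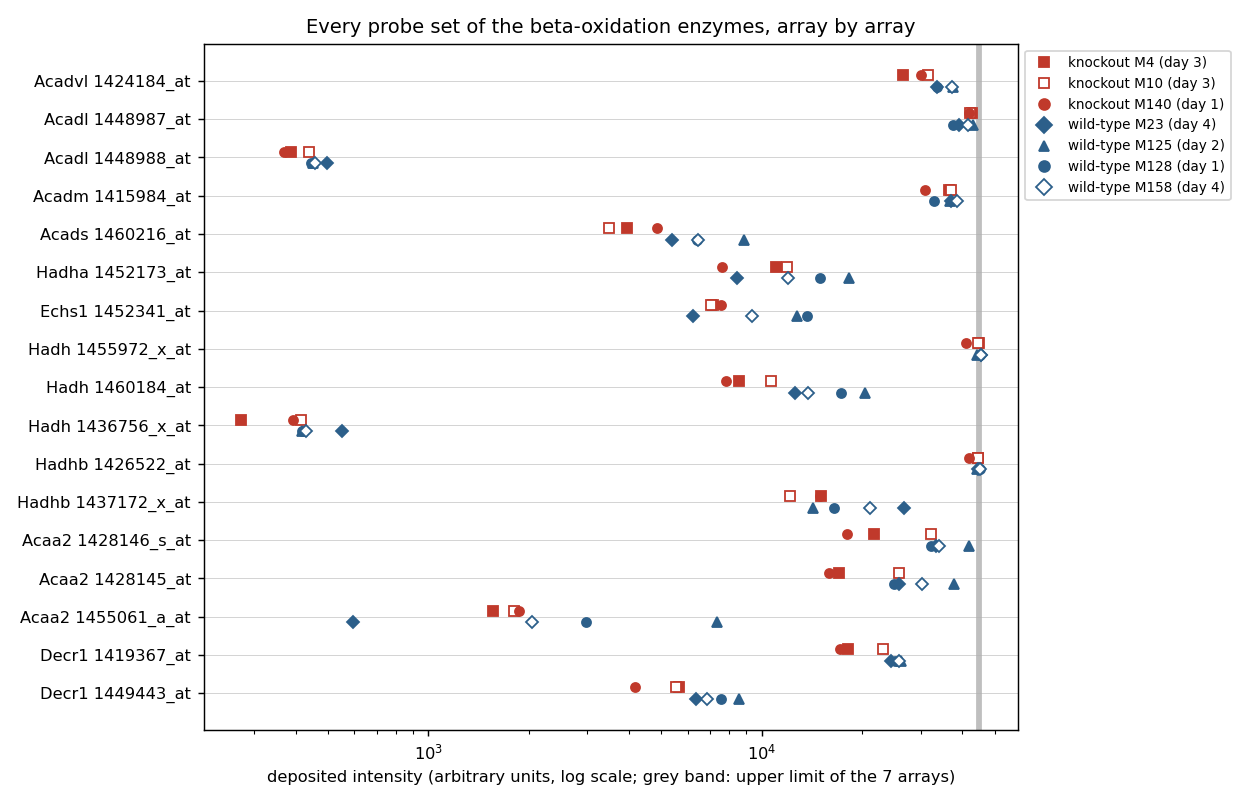
Deposited intensity (log axis, arbitrary units) of all 17 probe sets of the 10 genes on 7 arrays. Red marks are the 3 knockout arrays and blue marks the 4 wild-type arrays, marker shapes give the hybridization day, and the grey band spans the upper limits of 44145 to 45552. Sets of Hadh and Hadhb lie on the band, and the other sets of these genes do not.

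The 4 acyl-CoA dehydrogenases, which open each turn and differ in chain length, gave 4 different readings. Acads, for short chains, read 3943, 3487 and 4847 on knockout M4, M10 and M140, against 5364, 8853, 6407 and 6426 for wild-type M23, M125, M128 and M158. Every knockout array was below every wild-type array, and M125 was the highest. Mean intensities were 4093 ± 692 (SD, n = 3) for knockout and 6763 ± 1480 (SD, n = 4) for wild type. On the log2 scale the difference was -0.71 ± 0.20 (SE; limma adjusted p = 0.266; two-sided exact permutation p = 0.0571). The permutation test runs over the 35 ways to divide 7 arrays into 3 and 4 and cannot go below 0.0286. All log2 differences here are of log2(intensity + 16) and understate changes of dim probe sets. The p-values rest on the spread between single arrays, each of a different mouse. Day of hybridization can add to that spread and also to the differences themselves. Only day 1 held both groups, so genotype and day cannot be told apart on the other days.

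Acadvl, for very long chains, read 26518, 31505 and 29949 on knockout M4, M10 and M140 and 33468, 37472, 33458 and 37284 for wild-type M23, M125, M128 and M158. Knockout and wild type did not overlap, and the gap between knockout M10 and wild-type M128 was narrow. Mean intensities were 29324 ± 2552 (SD, n = 3) for knockout and 35421 ± 2262 (SD, n = 4) for wild type, and the log2 difference was -0.27 ± 0.077 (adjusted p = 0.277 by limma, exact permutation p = 0.0286). Its values lay at 59.1% to 84.9% of the upper limit.

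Acadm, for medium chains, read 36387, 36963 and 30818 on knockout M4, M10 and M140 and 36941, 36730, 32833 and 38530 for wild-type M23, M125, M128 and M158. Knockout and wild type overlapped, and the arrays of day 1, M140 and M128, were the lowest of each. The log2 difference was -0.06 ± 0.082 (adjusted p = 0.826 by limma). Acadl, for long chains, read 42756, 42098 and 41898 against 38998, 43166, 37510 and 41669 on its bright probe set 1448987_at. The difference was 0.07 ± 0.056 (adjusted p = 0.699 by limma), with overlapping groups, at 82.8% to 97.8% of the limit. Its other probe set, 1448988_at, was dim and not tested: it read 369 to 438 on the knockout arrays and 444 to 497 on the wild-type arrays, a log2 difference of -0.21 in the opposite direction (exact permutation p = 0.0286).

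The 4 dehydrogenases could be compared within arrays, since each array carries all of them. The log2 difference of Acads was further below 0 than that of Acadl by -0.78 ± 0.19 (SE, n = 3 and 4), and the knockout arrays lay apart from the wild-type arrays in this quantity. Against Acadm and Acadvl it was further by -0.65 ± 0.26 and -0.44 ± 0.20, with overlapping groups. These gaps between members are given without a test, because the genes were listed with earlier results of these data known.

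**Figure D2:**
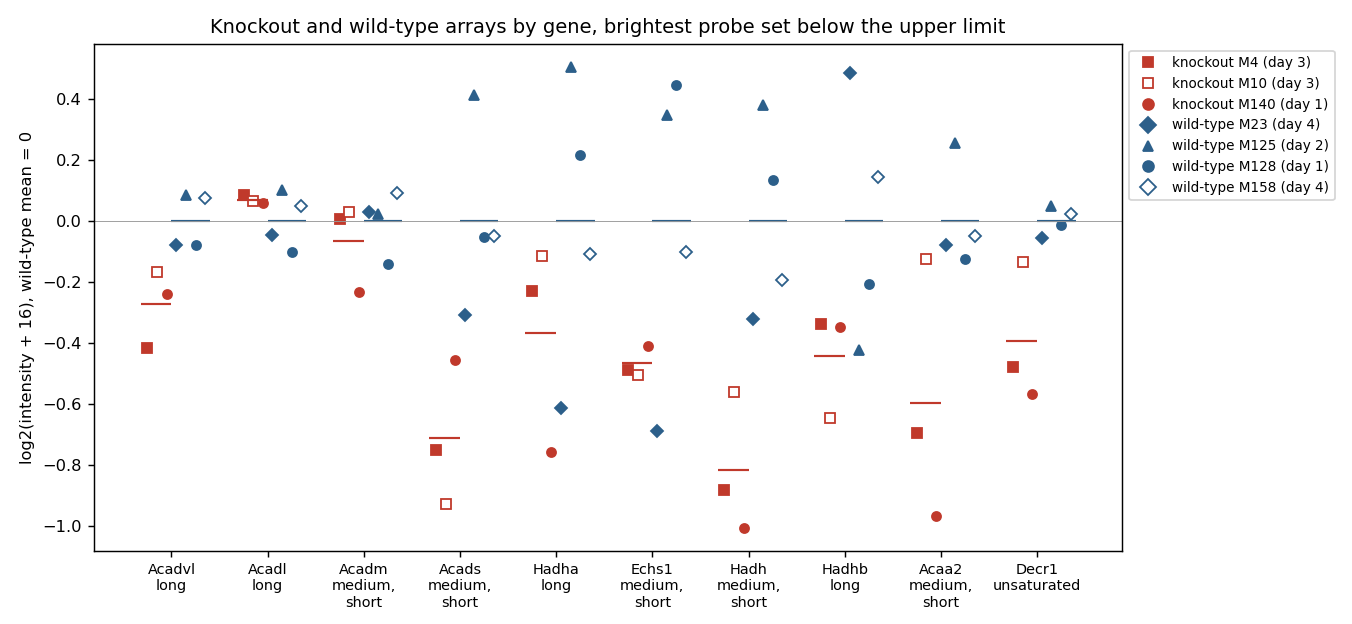
Log2(intensity + 16) of each gene on every array, with the wild-type mean set to 0, for the brightest probe set that stayed below the upper limit. Red marks and bars are the 3 knockout arrays and their mean, blue ones the 4 wild-type arrays and theirs. Knockout arrays lie wholly below for Acadvl, Acads, Hadh and Decr1, and knockout and wild-type arrays overlap for the other 6 genes.

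At the hydration step, Echs1, the short-chain enoyl-CoA hydratase, read 7141, 7050 and 7542 on knockout M4, M10 and M140. The wild-type readings were 6212, 12742, 13630 and 9329 in the order M23, M125, M128, M158. The knockout arrays were close together and the wild-type arrays spread widely, with M23 the lowest of all 7. The log2 difference was -0.47 ± 0.26 (adjusted p = 0.541 by limma, exact permutation p = 0.229).

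Hadha, the trifunctional protein's alpha subunit with the hydratase and the hydroxyacyl-CoA dehydrogenase for long chains, read 11003, 11927 and 7626 on knockout M4, M10 and M140. Wild-type M23, M125, M128 and M158 gave 8432, 18312, 14993 and 11982. M23 was again the lowest wild-type array, and the groups overlapped, with a log2 difference of -0.37 ± 0.27 (adjusted p = 0.667 by limma). Without M23 and M158, the arrays of lowest Gapdh ratio, Echs1 and Hadha differed by -0.86 and -0.73. Without knockout M140 the difference of Hadha was -0.17, and without wild-type M125 it was -0.20.

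The hydroxyacyl-CoA dehydrogenase for medium and short chains, Hadh, had 3 probe sets that differed widely in brightness. On 1460184_at it read 8526, 10648 and 7823 on knockout M4, M10 and M140 and 12588, 20445, 17261 and 13746 for wild-type M23, M125, M128 and M158. All knockout arrays were lower than all wild-type arrays. Mean intensities were 8999 ± 1470 (SD, n = 3) for knockout and 16010 ± 3562 (SD, n = 4) for wild type, and the log2 difference of -0.82 ± 0.19 was the largest of any member probe set (adjusted p = 0.214 by limma, exact permutation p = 0.0286). The brightest set, 1455972_x_at, was at the upper limit on 6 arrays and read 41059 on knockout M140, so that it gives no fold. The dim set 1436756_x_at was not tested by limma and read 273 to 415 against 419 to 551, also without overlap. Its log2 difference was -0.33 (exact permutation p = 0.0286). A suffix x_at marks sets that can cross-hybridize with other transcripts. In the same arrays, the difference of Hadh on 1460184_at was further below 0 than that of Hadha by -0.45 ± 0.15 (SE, n = 3 and 4), and the groups did not overlap in this quantity.

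Both thiolases read lower on average, with overlapping groups. Acaa2, the thiolase for medium chains, read 21701, 32271 and 17984 on knockout M4, M10 and M140 and 33299, 41954, 32271 and 33956 for wild-type M23, M125, M128 and M158 on 1428146_s_at. Knockout M10 and wild-type M128 had the same value, and the other 2 knockout arrays were well below. The log2 difference was -0.60 ± 0.19 (adjusted p = 0.301 by limma, exact permutation p = 0.0571). A second set from the same transcript, 1428145_at, differed by -0.61 ± 0.20. The third, 1455061_a_at, was dimmer and ran from 596 on wild-type M23 to 7349 on wild-type M125, with a difference of -0.39 ± 0.70. Its difference was 0.17 without wild-type M125.

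Hadhb, the trifunctional protein's beta subunit with the long-chain thiolase, read 44470, 44425 and 41807 against 44470, 44145, 45291 and 45148 on 1426522_at. That set was at the limit on 3 arrays and at 91.8% or more of it on the rest, and gives no fold. Below the limit, 1437172_x_at read 15074, 12183 and 14986 on knockout M4, M10 and M140 and 26644, 14218, 16513 and 21073 for wild-type M23, M125, M128 and M158. Knockout M4 and M140 overlapped with wild-type M125. On the log2 scale the set differed by -0.44 ± 0.21 (adjusted p = 0.461 by limma), and by -0.13 without M23 and M158, the 2 highest arrays. Around the group means, this set and Hadha, the neighbour that shares its start region, varied in opposite directions over the 7 arrays (r = -0.914, given as a description). That was not particular to this pair: the set also ran opposite to Hadh (r = -0.957) and Echs1 (r = -0.873). Of the other members, only Acadm had an r above 0 with it (0.101). M23 was the highest array for Hadhb and the lowest wild-type array for Hadha.

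Decr1, the dienoyl-CoA reductase that lets unsaturated chains enter the spiral, read 18193, 23132 and 17119 on knockout M4, M10 and M140. Wild-type M23, M125, M128 and M158 gave 24388, 26223, 25156 and 25759. Knockout arrays were all lower, with M10 nearest, and the wild-type arrays lay close together. Mean intensities were 19481 ± 3207 (SD, n = 3) for knockout and 25381 ± 794 (SD, n = 4) for wild type, and the log2 difference was -0.39 ± 0.11 (adjusted p = 0.259 by limma, exact permutation p = 0.0286). Its second set, 1449443_at, read 4168 to 5646 against 6365 to 8550, also without overlap, at -0.52 ± 0.16. Without knockout M10 the difference of the brighter set was -0.52 with an adjusted p of 0.0434 by limma, the 1 member probe set that passed when single arrays were left out (0.575% of all tested passed without M10).

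**Figure D3:**
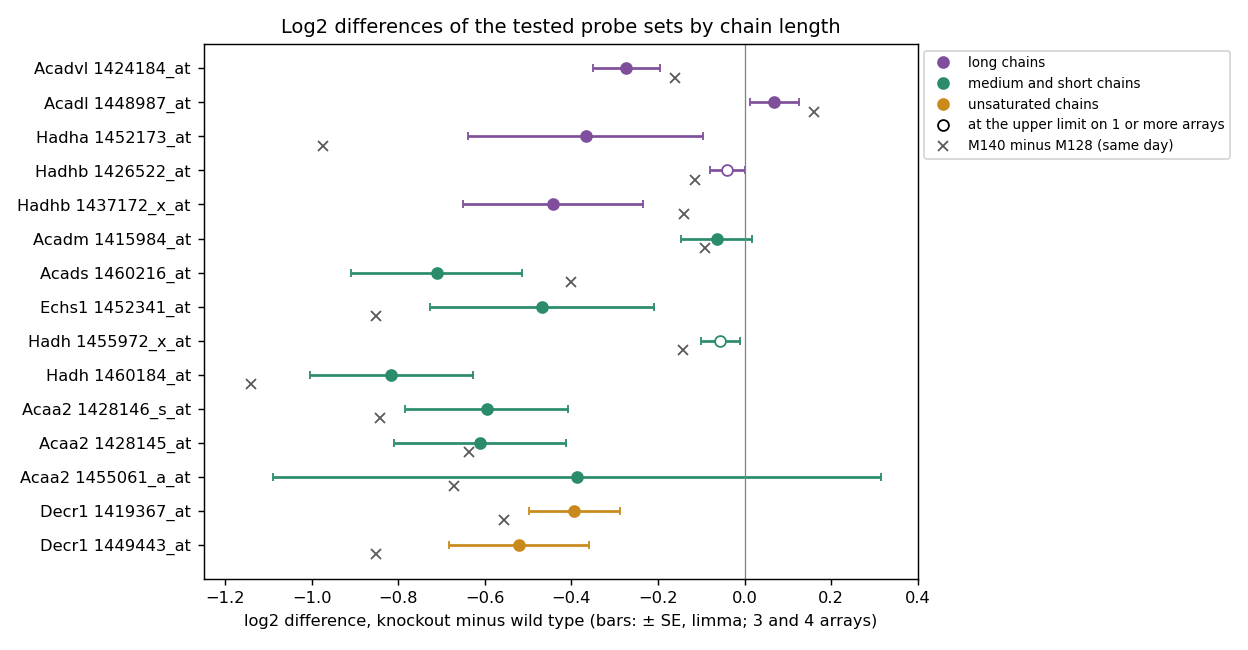
Log2 difference (knockout minus wild type) of the 15 tested probe sets with limma's SE, grouped by the chain length the enzyme accepts. Open circles mark sets with 1 or more arrays at the upper limit, and crosses give M140 minus M128, the pair of day 1. Acadl is the only set above 0, and the open circles of Hadh and Hadhb sit near 0.

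Grouped by chain length, the long-chain genes Acadvl, Acadl, Hadha and Hadhb had a median log2 difference of -0.16, and the medium- and short-chain genes Acadm, Acads, Echs1, Hadh and Acaa2 one of -0.47, when each gene was read by its brightest probe set. Read by the brightest set that stayed below the upper limit on all arrays, the medians were -0.32 and -0.60. The ranges overlapped, from -0.44 to 0.07 for the long-chain genes and from -0.82 to -0.06 for the others. By step, with sets below the limit, the median was -0.17 over the 4 acyl-CoA dehydrogenases and -0.52 over the 2 thiolases, and the hydratases and hydroxyacyl-CoA dehydrogenases ranged from -0.37 to -0.82. At the steps with separate long- and short-chain enzymes, Hadh was further below 0 than Hadha, Echs1 differed from Hadha by -0.10 ± 0.21 and Acaa2 from Hadhb by -0.15 ± 0.42. In each of these pairs the shorter-chain enzyme was further below 0, with overlapping groups for Echs1 and Acaa2. Among the acyl-CoA dehydrogenases it was otherwise. Acadvl, for very long chains, was further below 0 than Acadm by -0.21 ± 0.11, with overlapping groups. No order by chain length therefore held at every step.

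Place on the intensity scale differed between members too. Acadl, Acadm and Acadvl, at 59.1% to 97.8% of the limit, had small differences, and Acads and Hadh on 1460184_at, at 7.85% to 46.3%, large ones. Acaa2 did not follow that order: its brightest set, at 39.5% to 95% of the limit, differed by -0.60, more than Hadha at 16.7% to 41.5% (-0.37) and Echs1 at 13.6% to 30.1% (-0.47). Over all tested probe sets the size of differences was small at both ends of the scale. The median size was 0.095 among 9905 sets below 5% of the limit, 0.19 among 2947 sets at 5% to 20% of the limit, 0.13 among 135 sets at 60% to 80%, 0.057 among 115 sets at 80% to 97%, and 0.0061 among 86 sets above that. Within their own ranges, Acads, Hadh and both bright sets of Acaa2 lay beyond the 90th percentile of size (0.56 at 5% to 40%, 0.48 at 40% to 60% and 0.36 at 60% to 80%). Acadl and Acadm lay within it. So did Acadvl (-0.27) and the sets of Decr1 (-0.39 and -0.52), although their knockout arrays were all below the wild-type arrays. Hadha, Echs1 and the Hadhb set that stayed below the limit (-0.44) lay within it too. For the 4 acyl-CoA dehydrogenases in order of mean intensity, Acads, Acadvl, Acadm and Acadl, the differences were -0.71, -0.27, -0.06 and 0.07. In order of chain length, Acads, Acadm, Acadl and Acadvl, they were -0.71, -0.06, 0.07 and -0.27. The part of brightness and of chain length in these differences was not tested.

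**Figure D4:**
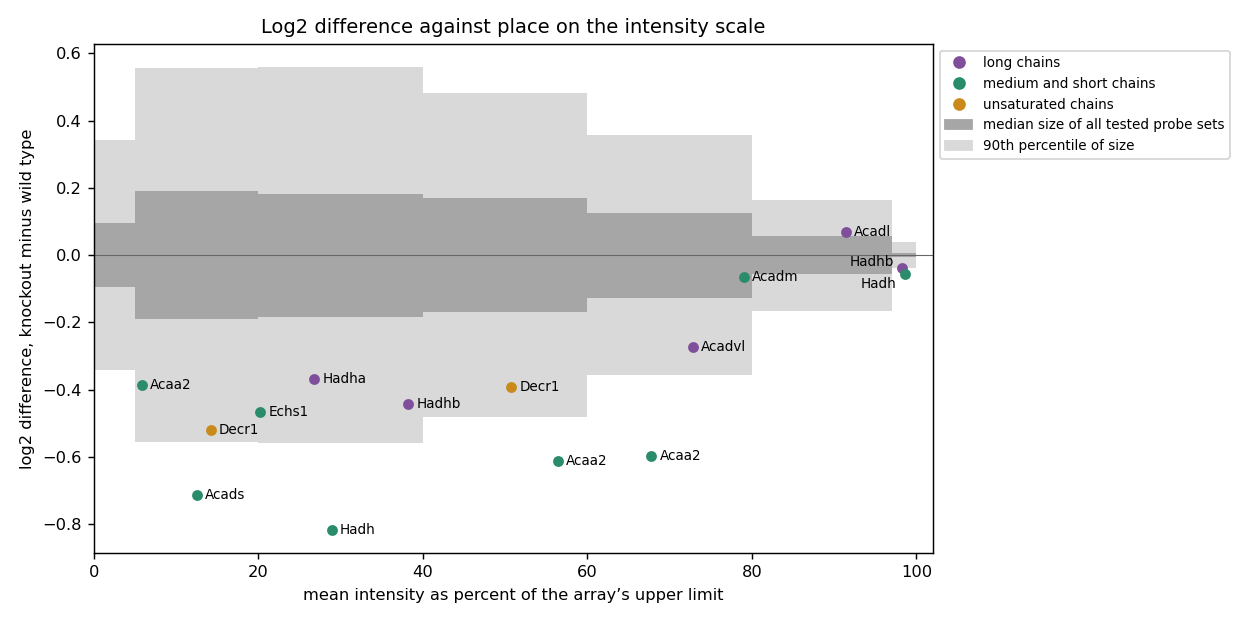
Log2 difference of the 15 tested member probe sets against mean intensity as a percent of each array's upper limit. Dark and light grey show the median and the 90th percentile of the size of differences over all 13836 tested probe sets in each range. Both are wider at 5% to 20% of the limit (0.19 and 0.56) than below 5% (0.095 and 0.34), and narrow above 40% to 0.0061 and 0.038 in the last range.

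Across arrays, most members varied in the same direction, array by array. With the brightest set below the limit for each gene, the mean deviation over the 10 genes was -0.24, -0.13 and -0.32 (log2) on knockout M4, M10 and M140. It was 0.006, 0.35, 0.18 and 0.16 for wild-type M23, M125, M128 and M158. M125 was the highest array for 7 of the 10 genes, and M140 the lowest for 5. The closest pair was Acaa2 and Decr1 (r = 0.969 over 7 arrays, and 0.941 around the group means), and Acadl and Hadhb were the farthest (r = -0.508). These correlations are descriptions over arrays that also share hybridization days. A mean standardized profile of the members was also taken, here with each gene read by its brightest probe set. Those of Hadh and Hadhb were at the upper limit on 6 and 3 arrays. Of the 8859 other genes, Grcc10, Pradc1, Drd4, Rdm1 and Efnb3 were most like that profile. Their r over 7 arrays was 0.984, 0.984, 0.981, 0.974 and 0.973, and 15 genes exceeded 0.95.

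The high array M125 and the knockout array nearest the wild type, M10, were those with the most Myl7. The 6 atrial markers, all tested, summed to 49346 to 73697 on the knockout arrays and 10712 to 76212 on the wild-type arrays. Nppa was at the upper limit on knockout M4 (44869) and M140 (45540) and made up most of their sums. Wild-type M23, M125, M128 and M158 read 6717, 32820, 12669 and 7993 for Nppa. Of the 6, 2 (Nppa and Dkk3) were higher at an unadjusted p under 0.05, against 6.57% of all tested probe sets. Myl7, Myl4, Sln and Bmp10 differed by 0.34, -0.54, -0.09 and -0.06, with overlapping groups. Without both M10 and M125, 7 of 15 member probe sets were lower at an unadjusted p under 0.05, against 4.05% of all tested, and 9 of 15 lay wholly below, against 13.3% of all, a share that is larger with fewer arrays. There Acads, Hadh on 1460184_at and the brighter set of Decr1 differed by -0.47, -0.82 and -0.51. Fibroblast markers (6 of 6 tested, 0 called at that p) summed to 19421 to 57707 and 24848 to 37968, with knockout M10 the lowest. The 7 macrophage markers, all tested, summed to 21515 to 26215 and 16599 to 23447. Of the 7, 3 (Cd68, Csf1r and Cd163) were higher at an unadjusted p under 0.05, against 6.57% of all tested probe sets. Adgre1, Mrc1, C1qa and C1qb differed by 0.10, 0.04, -0.05 and 0.38, with overlapping groups. The 7 ventricular markers summed to 304164 to 312111 and 287275 to 299777, largely at the limit. Of the 3 red blood cell markers 1 was tested: Alas2, the first enzyme of haem synthesis in red cell precursors, read 6236, 6484 and 2598 on knockout M4, M10 and M140 and 1649 to 2123 on the wild-type arrays. Knockout arrays all lay higher, M140 the nearest, and Alas2 differed by 1.33 ± 0.31 on the log2 scale (unadjusted p = 0.00278, adjusted p = 0.222 by limma). Among all tested probe sets 6.57% were higher at an unadjusted p under 0.05. Hba-a1, dim and not tested, read 272 to 308 on the knockout arrays and 266 to 326 on the wild-type arrays. The lists of endothelium (6 of 6 tested), smooth muscle (3 of 4), fat cells (1 of 6), brown fat cells (2 of 2) and skeletal muscle (1 of 4) had 0 markers at an unadjusted p under 0.05 in either direction. The part of these cell types in the members' differences was not tested.

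Day 1 held an array of each group, and there the members were lower in M140 than in M128 for 14 of 15 probe sets, against 49.7% of all tested sets, with a median of -0.55 against 0.00. A difference of -0.30 or lower was read for 9 of 15, against 14.7% of all. Hadh on 1460184_at differed by -1.14, Hadha by -0.97, Echs1 and the dimmer set of Decr1 by -0.85 each, the brightest set of Acaa2 by -0.84, Acads by -0.40, and Acadl by 0.16. This comparison has 1 array a group and no replicate check. A fit with day as a fixed block adds no other comparison: since only day 1 held both groups, its estimates equal M140 minus M128, and their errors come from the 2 pairs of arrays within days 3 and 4. In that fit 7 of 15 member probe sets were lower at an unadjusted p under 0.05, against 6.92% of all tested, and no member passed adjustment (adjusted p of 0.212 to 0.839 by limma).

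The other genes of fatty acid oxidation, 37 in a list of entry, auxiliary, electron transfer, ketone, peroxisomal and regulatory genes, had 31 tested by their brightest set. Of these, 0 passed adjustment by limma, 9 were lower and 0 higher at an unadjusted p under 0.05, against 5.4% lower and 6.77% higher among the 8869 tested genes. Differences were below 0 for 26 of 31, against 50.6% of genes, and the median was -0.21, against -0.0027. This list too was drawn up with earlier results of these data known. Among the 10 entry genes, which bring fatty acids to the matrix, 4 were lower with a median of -0.42. Mlycd, the malonyl-CoA decarboxylase, read 1802 ± 225 (SD, n = 3) against 2907 ± 442 (SD, n = 4), at -0.68 ± 0.16 (adjusted p = 0.224 by limma). Slc22a5, the plasma membrane carnitine transporter, read 2267 ± 194 (SD, n = 3) against 4162 ± 1263 (SD, n = 4), at -0.83 ± 0.22. Acat1, a thiolase of the matrix that acts on acetoacetyl-CoA, differed by -0.39 ± 0.10, close to the value of Decr1. The 3 smallest p-values in the higher direction belonged to Cpt1a, the liver form of the carnitine transferase at the outer membrane, to Hsd17b4, the bifunctional enzyme of peroxisomes, and to Slc27a1, a fatty acid transporter. They differed by 0.16, 0.085 and 0.074 with overlapping groups (unadjusted p = 0.306, 0.626 and 0.714 by limma).

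The 3 electron transfer genes Etfa, Etfb and Etfdh, which pass electrons from the acyl-CoA dehydrogenases to the respiratory chain, differed by -0.15, -0.12 and -0.24, and 1 of 3, Etfdh, was lower at an unadjusted p under 0.05. Of the 6 tested auxiliary matrix genes 2 were lower at that p: the enoyl-CoA isomerase Eci1 at -0.52, and Ech1, at the limit on 2 arrays, at -0.20. The peroxisomal spiral, which shortens the longest chains outside mitochondria, had 0 of 5 tested genes at that p in either direction and a median of -0.03. Whether the mitochondrial and peroxisomal lists differ was not tested. Among the 4 tested regulators, Ppargc1a, which encodes PGC-1α, read 907 ± 215 (SD, n = 3) on knockout arrays and 3717 ± 544 (SD, n = 4) on wild-type arrays by its brightest set (log2 -2.03, adjusted p = 0.0531 by limma), and its other 4 sets differed by -0.50 to -0.81. Esrra, which encodes ERRα, differed by -0.19 ± 0.12 (adjusted p = 0.605 by limma). The probe set of Ppara did not pass the filter.

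**Figure D5:**
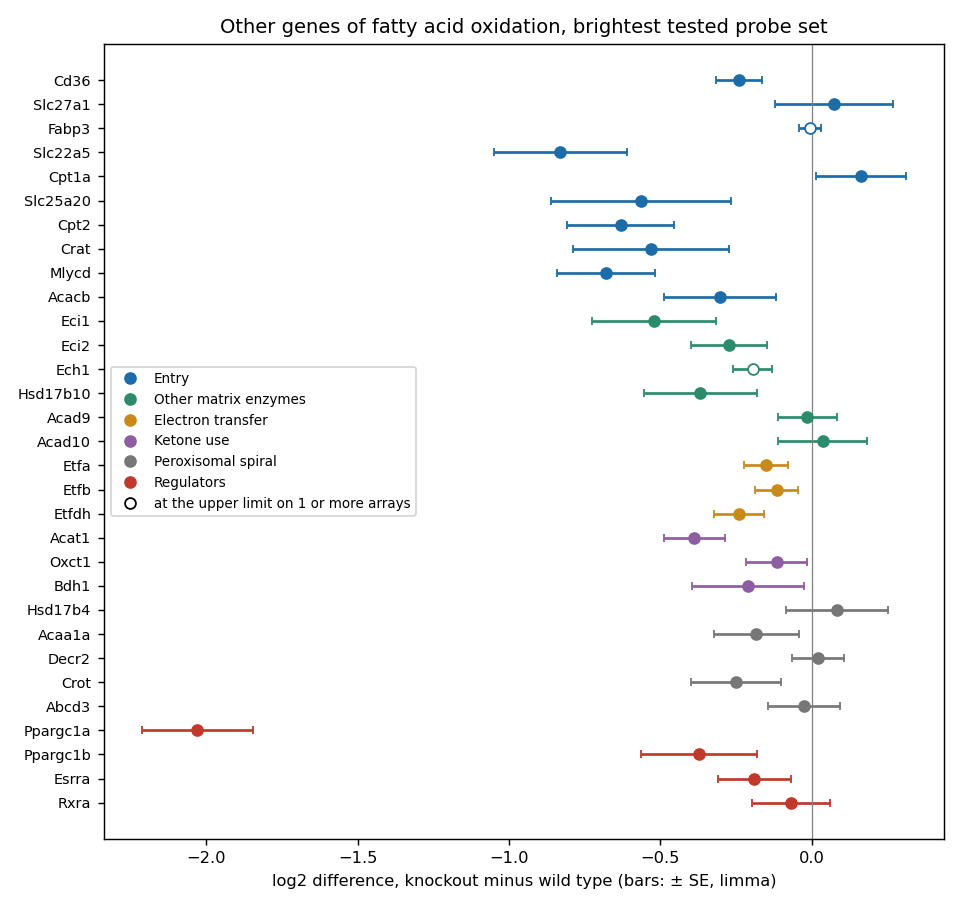
Log2 difference (knockout minus wild type, limma, ± SE) of the 31 tested genes of the wider list, by brightest probe set and coloured by role. Entry genes had a median of -0.42 and peroxisomal genes one of -0.03, and the brightest set of Ppargc1a lies farthest from 0 at -2.03.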

How the data were processed

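Total RNA of 7 left ventricles was read on MOE430A arrays, per the labels and the experiment sheets. The deposited table holds the authors' probe set intensities on a linear scale; software, background correction and scaling were not given in the sources used here. Hybridization days came from the sheets and coincided with 4 chip lots. The 64 control probe sets were left out. The platform annotation named 1 gene for 20380 probe sets, several for 691 and none for 1555. Groups followed the titles, and mouse numbers are not shared between them.

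Intensities were taken as log2(intensity + 16) and fitted over all tested probe sets by group alone with limma 3.58.1 under R 4.3.3 (lmFit, then eBayes with an intensity trend), with Benjamini-Hochberg adjustment at 0.05; tests were two-sided. Single values had exact permutation tests. At the limit means equal to the array's highest value. On simulated data with 200 of 13836 probe sets changed by 1, 1.5 and 2 (log2), the fit recovered 74%, 92.5% and 96%. False calls numbered 6, 7 and 13. The simulated noise was independent between arrays and had no day in it. Every member difference, at most 0.82 in size, was smaller than these changes, and recovery at such sizes was not simulated. Alternatives were offsets of 1 and 64, quantile normalization, normexp with offset 50, array weights, eBayes with no trend, a filter at the 60th percentile or none, day as a fixed or random block, other choices of probe set, and leaving out arrays. Named were all members with every probe set, Nos3, Myl7, regulators, and the 5 genes most alike. The 3 genes of the wider list with the smallest p in each direction were named too. Alas2, other cell type markers and other genes of the wider list were named after their values were seen. The classes of brightness and of place on the scale, and the cut of -0.30, were also set after the values were seen. The members and lists were chosen with earlier results of these data known.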

Additional observations from a re-analysis of the deposited data

Results flagged for a closer look

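Of the 17 member probe sets, 1 had a wild-type array far from the other 3 by Dixon's criterion at 95%, which chance meets in about 1 of 20 groups. On the dim and untested set 1436756_x_at of Hadh, wild-type M23 read 551.5, and the other wild-type arrays read 418.7 to 429.1. The 5′ to 3′ Gapdh ratio of M23, 0.0978, was also below that of every other array. The part of that ratio in this value was not tested.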

How the results depend on the processing

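The number of arrays, 3 and 4, and the upper limit bound what these values can show. Of 611 values under 21 alternatives, 580 kept their direction and their side of the threshold or stayed close to the main value. No main value passed the threshold, so this count says little about size. Hadha, for example, kept its side in all 21 while its difference ran from -0.97 to -0.17. With limma array weights, 619 probe sets, 6 of them members, passed an adjusted p of 0.05 (4.47% of all tested), and 16 genes of the wider list were lower at an unadjusted p under 0.05 (10.9% of all genes). The weight of knockout M4 was 3.81, and those of the other arrays ran from 0.373 to 1.87. The members were Acadvl, Acads, the Hadh set 1460184_at, the brighter set of Decr1 and 2 sets of Acaa2 (adjusted p of 0.0348 to 0.047). With the 60th percentile filter 1 probe set passed, with day as a fixed block 1, without M23 and M158 1, and without M10 and M125 2; 0 of these were members. With day as a fixed block, which rests on M140 and M128, 5 genes of the wider list were lower at an unadjusted p under 0.05 (7.33% of all genes). When single arrays were left out, 0 to 79 probe sets passed (79 without knockout M10, 27 without knockout M140), of which 0 to 1 were members. The count of member probe sets lower at an unadjusted p under 0.05 was 5 to 10, with 5 without M140 (5.13% of all tested) and 10 without wild-type M23 (5.15%). The count lying wholly below was 5 to 8 when 1 array was left out (8 without M23, against 6.78% of all tested), 9 without M10 and M125 (13.3%) and 8 without M23 and M158 (14.5%). The median log2 difference of the member genes ranged from -0.22 without wild-type M125 to -0.39 without M10, and was -0.42 with sets below the limit. Acadm ran from -0.11 to 0.019 when 1 array was left out, above 0 without M140, and the Acaa2 set 1455061_a_at from -1.02 to 0.17, above 0 without M125; without M10 and M125 the latter was 0.15. The cause was not tested. No paired analysis was possible because the groups share no mouse number.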
